A study of Homo sapiens with 4 samples.

Results

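IARS1, EPRS1, TARS1 and GARS1 encode cytosolic aminoacyl-tRNA synthetases, and their transcripts were measured after knockdown of MYC by 12 of the 15154 features on the arrays of this series. The features were found by gene symbol in the platform annotation: 6 stood for IARS1, 2 for EPRS1, 1 for TARS1 and 3 for GARS1, and all 12 had a value on all 4 arrays. The 4 genes were chosen with their log2 ratios under MYC siRNA known, and their means were the lowest of the synthetase genes with a value on all arrays, so those ratios are given below as a description that supports nothing. The cells were OCI-Ly10, an established cell line from a human lymphoma of mature B cells (diffuse large B-cell lymphoma, activated B-cell class). On each of 4 arrays, RNA of cells electroporated with 4 uM of a c-myc siRNA SMARTpool (Cy5) was hybridised together with control RNA (Cy3). The control cells had received 4 uM of a nonspecific Renilla Luc siRNA, called control siRNA here, on the 8 h and 24 h arrays. On the other 2 arrays, at 6 h and 24 h, they had been electroporated in Solution T with no siRNA. Each combination of time and control stands on 1 array, all 4 used 1 cell line, and 0 arrays had the dyes swapped. Dye effects on a gene therefore cannot be told apart from those of MYC knockdown. On the arrays against no siRNA, effects of receiving any siRNA cannot be told apart from it either.

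An aminoacyl-tRNA synthetase joins an amino acid to its tRNA, and the charged tRNA is then carried to the ribosome by elongation factor 1A. IARS1 charges isoleucine tRNA, TARS1 threonine tRNA and GARS1 glycine tRNA, the last in the cytosol and in mitochondria. EPRS1 is a fused enzyme that charges glutamic acid and proline tRNA. IARS1 and EPRS1 are held, with several other synthetases and the scaffold proteins AIMP1, AIMP2 and EEF1E1, in the multisynthetase complex, while TARS1 and GARS1 are not core members of it. Several synthetase genes are also known targets of ATF4, the transcription factor of the amino acid response, and MYC is known to drive many genes of protein synthesis.

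The values were deposited as signed ratios and were read as log2 of MYC siRNA over control. This direction is likely rather than stated: it rests on the dyes in the labels and on MYC itself, which lay below 0 on every array. MYC was at -0.94 (8 h) and -0.35 (24 h) on the arrays against control siRNA and at -1.26 (6 h) and -1.03 (24 h) on those against no siRNA (mean -0.89 ± 0.39, SD, n = 4; limma adjusted p = 0.0146, and 0.053 without the 6 h array). Between 12028 and 12784 features had a value per array, and array medians lay between -0.034 and 0.014. The standard deviation over features was 0.447 on the 24 h array against no siRNA and 0.288 to 0.327 on the other 3, so that array spreads all genes more widely. Ratios hold no absolute level, so the identity of the line could not be checked from marker levels. B-cell marker genes had a median of 0.08 (0 of 8 lower and 2 higher in limma, beside 5.56% of all rows higher), T-cell markers 0.16 (0 of 9 changed, 2 at an unadjusted p under 0.05), monocyte markers 0.13 (0 of 2 changed, 0 at an unadjusted p under 0.05) and erythroid markers 0.02 (1 of 3 higher). At an unadjusted p under 0.05 in limma, 19.6% of all rows were lower and 15.8% higher. The part of these markers in the results was not tested.

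IARS1 had the lowest mean of the 4 genes. Averaged over its 6 features, its log2 ratio was -0.28 on the 6 h no-siRNA array, -0.49 on the 8 h control-siRNA array, -0.47 on the 24 h control-siRNA array and -0.69 on the 24 h no-siRNA array. The mean was -0.48 ± 0.17 (SD, n = 4), which is 71.6% of control, and the gene lay below 0 on all 4 arrays. Its features differed in size: feature 36478_1 averaged -0.81 (57.0% of control), 29267_1 -0.73, 36598_1 -0.46, 35249_1 -0.38, 35255_1 -0.38 and 34517_1 -0.13 (91.6% of control). The SD between these feature means was 0.25, as wide as the mean SD of a feature between arrays, 0.22. Of the 24 single values 23 were below 0, the exception being 0.07 for 34517_1 at 6 h. Feature 35255_1 was highest on the 8 h array, while the others were highest on the 6 h array and differed in which array was lowest. It was at -0.06 (8 h) and -0.17 (24 h) on the control-siRNA arrays, but at -0.41 (6 h) and -0.89 (24 h) on the no-siRNA arrays.

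EPRS1 was at -0.22 on the 6 h no-siRNA array, at -0.39 on each of the 8 h and 24 h control-siRNA arrays and at -0.57 on the 24 h no-siRNA array. The mean was -0.39 ± 0.14 (SD, n = 4), or 76.1% of control. That mean joins 2 features that disagree. Feature 29230_1 was at -0.68 (8 h) and -0.69 (24 h) on the control-siRNA arrays and at -0.36 (6 h) and -1.03 (24 h) on the no-siRNA arrays (mean -0.69). Feature 33755_1 stayed between -0.11 and -0.09 on all 4 arrays (mean -0.10 ± 0.009, SD, n = 4), so every large EPRS1 value came from 1 feature. The annotation pairs both with the same transcript and does not say which stretch of it each one holds.

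TARS1 rested on the single feature 38119_1. Its log2 ratio was -0.13 on the 6 h no-siRNA array, -0.16 on the 8 h and -0.40 on the 24 h control-siRNA array, and -0.81 on the 24 h no-siRNA array. The mean was -0.38 ± 0.31 (SD, n = 4), or 77.1% of control, and the last array alone gave 57.2% of control. Without that array the mean was -0.23.

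GARS1 was the closest to 0 of the 4 genes. Its 3 features averaged -0.08 on the 6 h no-siRNA array, -0.23 (8 h) and -0.29 (24 h) on the control-siRNA arrays and -0.60 on the 24 h no-siRNA array, a mean of -0.30 ± 0.22 (SD, n = 4) or 81.3% of control. The means of its features were -0.46 for 16938_1, -0.30 for 34030_1 and -0.14 for 27416_1. Of their 12 values 11 were below 0, and the exception was 0.07 for 27416_1 at 6 h. The gene averaged -0.20 with the 24 h no-siRNA array left out.

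**Figure D1:**
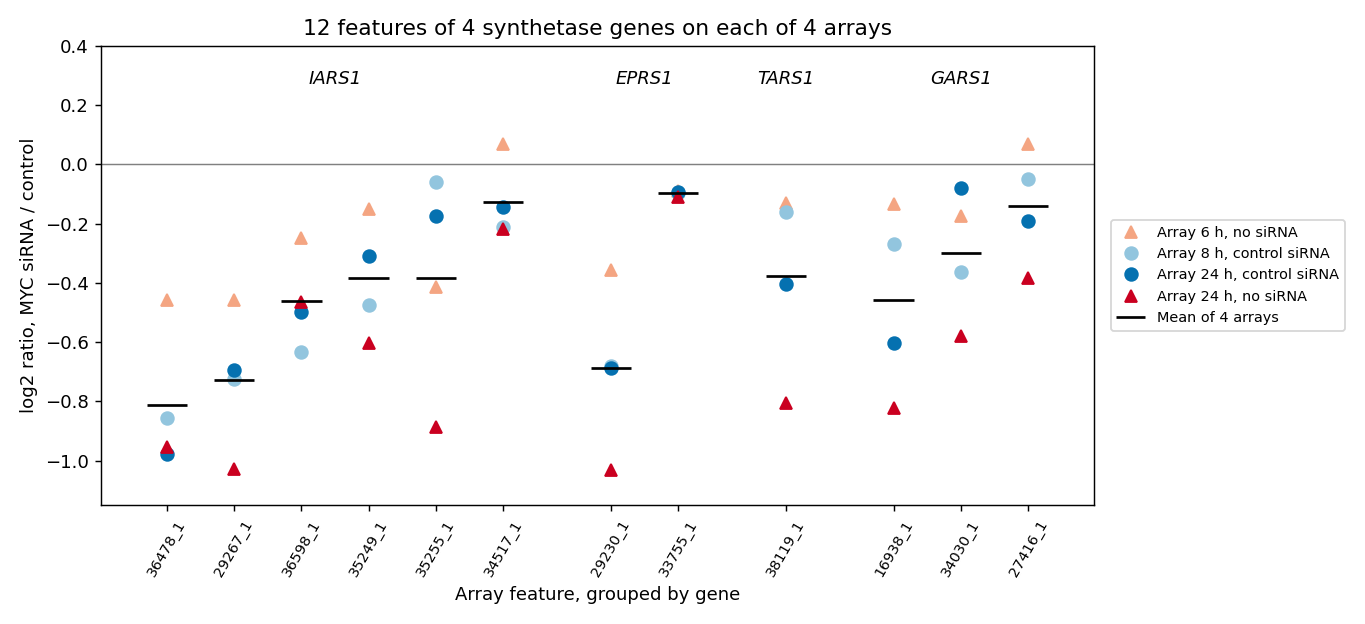
Log2 ratios of MYC siRNA over control (y axis) for each of the 12 features (x axis, grouped by gene), with 1 point per array and a line at the mean of the 4 arrays. Feature means run from -0.81 (IARS1) to -0.10 (EPRS1), and 46 of the 48 points lie below 0.

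Over the 12 features, 46 of 48 values (95.8%) lay below 0, while 51.8% of the values of all 10161 complete features did. The members were chosen from these ratios, so the share describes them and supports nothing. Of the 4 genes, IARS1 and EPRS1 had an adjusted p under 0.05 in limma, beside 10.2% of all 6798 rows called lower. The highest of the 4, GARS1, averaged -0.30, and just outside the choice stood WARS1 at -0.29. IARS1 was lower than EPRS1 on all 4 arrays, by 0.06 to 0.12, and lower than GARS1 on all 4, by 0.10 to 0.27. The features of IARS1 lay 0.69 apart and those of EPRS1 0.59 apart, so the order of the genes is not larger than the spread between features of 1 gene.

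**Figure D2:**
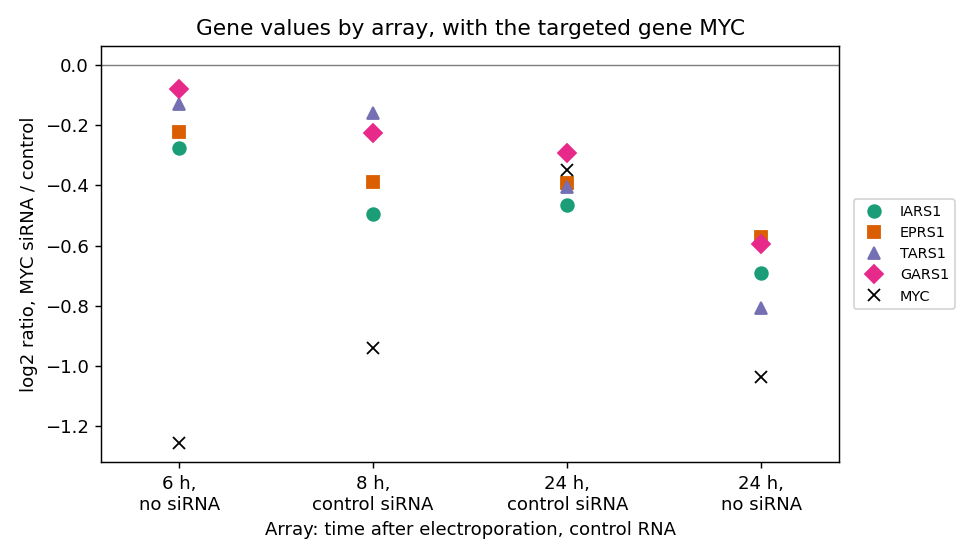
Log2 ratio of each gene (y axis), averaged over its features, on each of the 4 arrays (x axis), with MYC as crosses. The 4 synthetase genes lie between -0.28 and -0.08 at 6 h and between -0.81 and -0.57 at 24 h against no siRNA, while MYC was closest to 0 at 24 h against control siRNA (-0.35).

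Promoter sequences are shown because MYC, the targeted gene, and ATF4, a known regulator of several synthetase genes, have known motifs. Whether either acts on these ratios was not tested. The 4 genes lay below 0 on all 4 arrays, as did 23.3% of all rows. They were chosen from these ratios, so that shared side supports nothing. The E-box CACGTG, the motif of MYC with its partner MAX, and TGATGNAA, the core of the composite element bound by ATF4 with C/EBP factors, were searched on both strands. Each window runs from 250 bases before to 50 bases after an annotated gene start in RefSeq (build GRCh38.p14), is printed 5′ to 3′ on the strand of the gene, and has motif matches in capitals. All 4 genes had a window, and TARS1 and GARS1 had 2 each. The second is shown for TARS1 and GARS1, since the first held neither motif.
IARS1, chr9:92293648-92293947, minus strand: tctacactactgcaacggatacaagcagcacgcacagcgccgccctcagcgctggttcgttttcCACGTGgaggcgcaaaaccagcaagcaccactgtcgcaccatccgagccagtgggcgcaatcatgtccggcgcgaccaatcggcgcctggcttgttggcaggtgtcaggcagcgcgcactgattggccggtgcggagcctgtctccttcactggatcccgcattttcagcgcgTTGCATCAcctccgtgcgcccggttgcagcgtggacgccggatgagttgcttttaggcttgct
EPRS1, chr1:220046456-220046755, minus strand: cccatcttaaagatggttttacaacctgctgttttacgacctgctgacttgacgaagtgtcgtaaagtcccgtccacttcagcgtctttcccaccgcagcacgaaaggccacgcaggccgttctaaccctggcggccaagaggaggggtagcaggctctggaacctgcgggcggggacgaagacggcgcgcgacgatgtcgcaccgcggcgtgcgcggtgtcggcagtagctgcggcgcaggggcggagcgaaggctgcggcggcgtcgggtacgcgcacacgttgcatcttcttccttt
TARS1, chr5:33440715-33441014, plus strand: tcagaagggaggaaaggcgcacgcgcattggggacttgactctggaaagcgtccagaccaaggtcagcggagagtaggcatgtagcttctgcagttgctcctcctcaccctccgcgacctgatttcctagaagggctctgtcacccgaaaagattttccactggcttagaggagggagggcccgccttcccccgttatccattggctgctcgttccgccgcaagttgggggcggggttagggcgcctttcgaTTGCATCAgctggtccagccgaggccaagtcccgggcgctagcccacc
GARS1, chr7:30594628-30594927, plus strand: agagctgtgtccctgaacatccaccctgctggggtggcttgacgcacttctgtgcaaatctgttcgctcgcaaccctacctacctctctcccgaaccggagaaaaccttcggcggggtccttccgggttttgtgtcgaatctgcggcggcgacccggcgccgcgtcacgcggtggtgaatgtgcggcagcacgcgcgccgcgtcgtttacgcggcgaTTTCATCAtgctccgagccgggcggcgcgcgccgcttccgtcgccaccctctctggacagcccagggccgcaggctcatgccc
The E-box was found in 1 of the 4 genes, IARS1, from 186 to 181 bases before the start. The ATF4 core was found in 3 of the 4. It reads TTGCATCA in IARS1 (chr9:92293703-92293710) and in TARS1 (chr5:33440967-33440974), and TTTCATCA in GARS1 (chr7:30594845-30594852), in each case on the strand opposite to the gene. EPRS1 held neither set of letters in its window. The matches do not overlap each other. Over all 35116 windows of the table, 7.26% held the E-box and 3.62% the ATF4 core. By gene, 4.46% of 27305 genes held the core in at least 1 window and 8.77% the E-box. Of the 3239 genes tested on the arrays that had a window, 3.67% held the core and 13.2% the E-box. Among cytosolic synthetases the ATF4 core was in 7 of the 16 genes with a window (43.8%): AARS1, CARS1, GARS1, IARS1, MARS1, NARS1 and TARS1. Among mitochondrial ones the core was in 1 of 14, YARS2 (7.14%). The E-box was found in 1 of the 16 cytosolic and 3 of the 14 mitochondrial synthetase genes (CARS2, EARS2 and MARS2). Counts over the whole family were added after the members' matches were seen. A match describes these letters and is not evidence of binding.

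**Figure D3:**
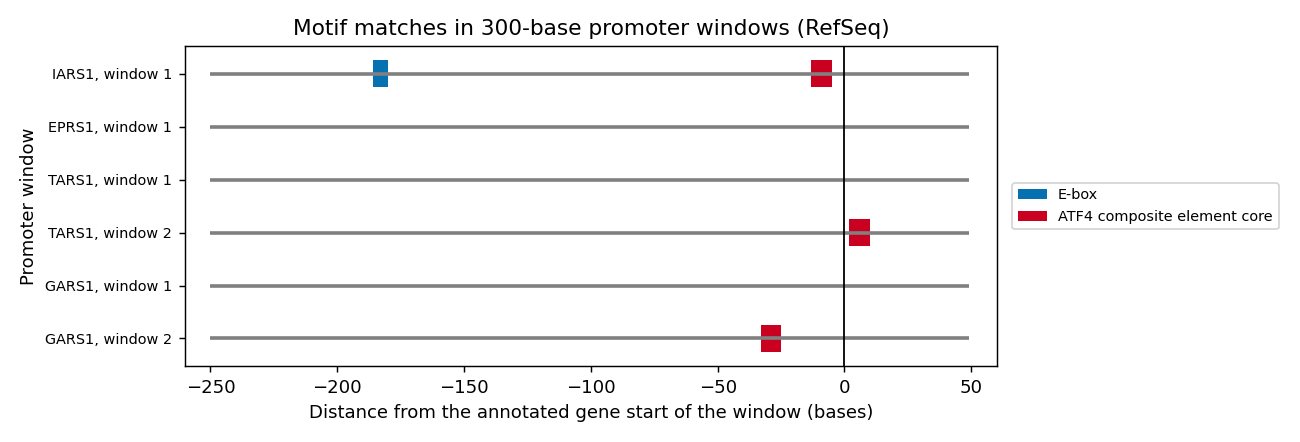
Motif matches (coloured blocks) along the promoter windows of the 4 genes, with the distance from the annotated gene start in bases on the x axis and 1 line per window. The ATF4 core lies within 33 bases of the start in IARS1, TARS1 and GARS1, and the E-box of IARS1 lies 186 to 181 bases before it.

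Genes with the most similar values over the 4 arrays were found by the root mean square difference of log2 ratios, among 3953 other named genes. For IARS1 these were LAMTOR3, a scaffold of the Ragulator complex (0.040), MRE11, a DNA repair nuclease (0.047), and EIF3B, a subunit of initiation factor 3 (0.057). For EPRS1 they were the kinase gene NEK6 (0.025), the Golgi syntaxin gene STX5 (0.028) and CCT3, a subunit of the cytosolic chaperonin (0.033). ATAD1, an AAA ATPase of mitochondria and peroxisomes (0.055), the kinase gene RIPK2 (0.057) and MDH1, cytosolic malate dehydrogenase (0.060), were closest to TARS1. TXNRD1, thioredoxin reductase (0.027), PTGES3, the Hsp90 cochaperone p23 (0.028), and SET (0.034) were closest to GARS1. The median difference from all other genes was 0.386 to 0.524. Among the 4 genes themselves, the 6 differences ran from 0.093 (IARS1 and EPRS1) to 0.194 (IARS1 and GARS1). In order of nearness to 1 of the 4, the other members stood between number 25 (EPRS1 to IARS1) and number 460 (IARS1 to GARS1). With 4 arrays per gene, this likeness is a description.

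Of the synthetase genes of the cytosol, those outside the 4 did not pass the test under MYC siRNA as fitted over the mean alone, while WARS1 did with time and control as terms of the model. Of 21 genes on the list, 8 had features and 7 had a value on all arrays: 2 were lower, 0 higher and 5 did not pass in limma, with a median of -0.30, beside 10.2% of all rows called lower and a median of -0.003 over them. With an array left out, 0 to 441 rows passed, which bears on every call here and in the lists below. Those fits had fewer residual degrees of freedom than the full one but the same as each other, and the cause of the range was not tested. Apart from the 4 genes above, 0 of 3 changed (0 at an unadjusted p under 0.05), with a median of -0.09, or -0.26 over the features with a value on all arrays. At that unadjusted level 19.6% of all rows were lower and 15.8% higher. With time and control as terms, 5 of the 7 were called lower, the 4 genes above and WARS1 (limma adjusted p = 0.0234). In that fit 1124 of all 6798 rows were called lower, and the 4 genes were chosen on this contrast. WARS1, the tryptophan enzyme, averaged -0.29 ± 0.52 (SD, n = 4) over 4 features. It was at 0.15 (8 h) and -0.79 (24 h) on the control-siRNA arrays and at 0.16 (6 h) and -0.69 (24 h) on the no-siRNA arrays. AARS1, the alanine enzyme, averaged -0.09 ± 0.40 (SD, n = 4), with -0.68 at 24 h against control siRNA and 0.05 to 0.19 on the other 3 arrays. LARS1, the leucine enzyme, was at -0.06 ± 0.22 (SD, n = 4) over 2 features, of which 1 had no value at 8 h; the other averaged -0.26 ± 0.28 (SD, n = 4). NARS1, the asparagine enzyme, had values on the arrays against no siRNA only, 0.10 at 6 h and -0.19 at 24 h, and was not tested.

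Mitochondrial synthetases, which charge tRNA for the ribosomes of that organelle, had a median of 0.06. Of 4 measured genes 0 changed (limma). IARS2 had an unadjusted p under 0.05, beside 19.6% of all rows lower and 15.8% higher at that level. IARS2, the mitochondrial counterpart of IARS1, lay below 0 on all 4 arrays, between -0.33 and -0.15 (mean -0.25 ± 0.08, SD, n = 4; adjusted p = 0.0662). HARS2 averaged 0.02 (-0.002 on its 1 feature with a value on all arrays), YARS2 0.10 and FARS2 0.19, with SDs of 0.08, 0.30 and 0.30 (n = 4 each).

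**Figure D4:**
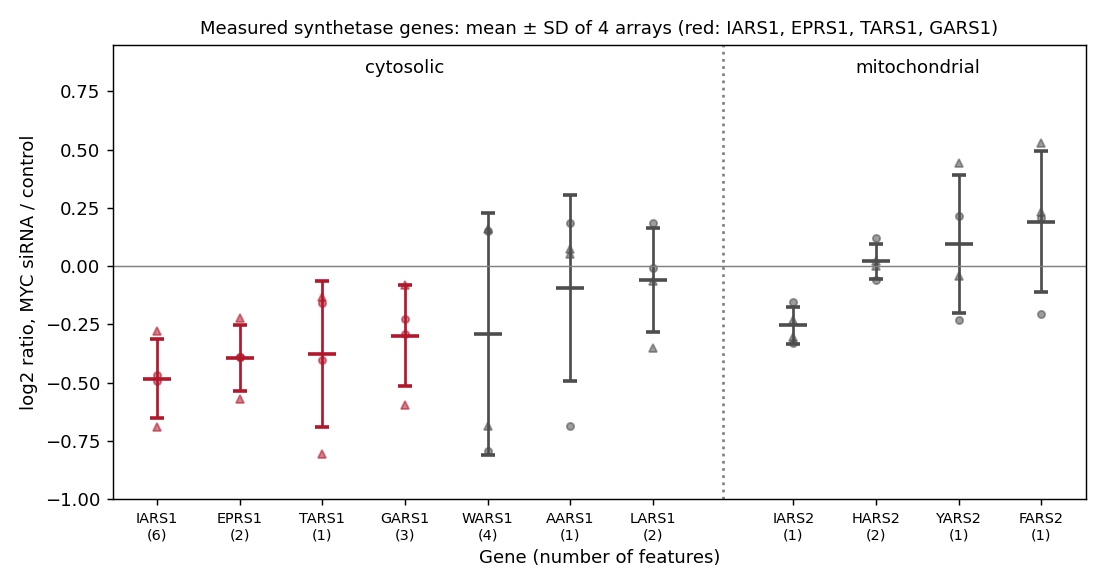
Mean log2 ratio with SD (bars) and the values of the 4 arrays (points; circles against control siRNA, triangles against no siRNA) for the 7 cytosolic and 4 mitochondrial synthetase genes measured on all arrays, with the number of features in brackets. IARS1, EPRS1, TARS1 and GARS1, in red, lie below 0 on each array, and of the others IARS2 does too.

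In the multisynthetase complex, 4 of 11 genes were measured on all arrays, and the 2 called were IARS1 and EPRS1, which were chosen on this contrast. LARS1 (-0.06) and the scaffold gene AIMP1 (-0.02 ± 0.08, SD, n = 4) did not pass. The AIMP1 value averages 6 features that disagree: those complete on all arrays had means of -0.53, -0.18, 0.20 and 0.29. GAPDH was the 1 measured partner of EPRS1 in the interferon-gamma-activated inhibitor of translation (GAIT) complex, and its mean was 0.02 ± 0.35 (SD, n = 4), which did not pass.

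Lists for the steps around tRNA charging held 3 calls, to be read beside the 10.2% of all rows called lower. Of 3 elongation factor genes, EEF1B2, an exchange factor of elongation factor 1A, fell (-0.45 ± 0.26, SD, n = 4; limma adjusted p = 0.0299) and 2 did not pass, with a list median of 0.01. Among 8 genes of tRNA transcription, processing and export, 2 fell and 6 did not pass, with a median of -0.13. These were RPP30, a subunit of RNase P, which trims the 5′ end of tRNA precursors (-0.58 ± 0.40, SD, n = 4), and ADAT2, which converts adenosine to inosine in tRNA anticodons (-0.36 ± 0.09, SD, n = 4).

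The amino acid supply was represented by 3 lists. Of 11 genes of amino acid synthesis 4 fell, 0 rose and 7 did not pass, with a median of -0.26, beside 10.2% of all rows called lower and 5.56% higher. GLUD1, glutamate dehydrogenase, averaged -0.58 ± 0.30 and GOT1, the cytosolic aspartate aminotransferase, -0.51 ± 0.30 (SD, n = 4 each). CBS (-0.37 ± 0.22) and CTH (-0.32 ± 0.15), the enzymes that make cysteine from homocysteine, were the other 2 and also stand on the ATF4 list. In the list of the amino acid response 3 of 14 fell, 0 rose and 11 did not pass (median -0.18). The third gene was EIF2S1, the alpha subunit of initiation factor 2, whose phosphorylation starts that response (-0.36 ± 0.11, SD, n = 4). ATF4 itself, named after its values were seen, averaged -0.26 ± 0.31 over 5 features (SD, n = 4; limma adjusted p = 0.145). It was at 0.03 (8 h) and -0.29 (24 h) on the control-siRNA arrays and at -0.11 (6 h) and -0.68 (24 h) on the no-siRNA arrays. Of 6 amino acid transporter genes 0 changed (limma), with a median of -0.06. At an unadjusted p under 0.05 there was 1 of 6, beside 19.6% of all rows lower and 15.8% higher. SLC3A2, the heavy chain of several transporters, was at -0.27 ± 0.36 and SLC38A2, a glutamine carrier, at -0.24 ± 0.19 (SD, n = 4 each). On its 1 feature with a value on all arrays SLC3A2 averaged -0.40 ± 0.31 (SD, n = 4) and passed (limma adjusted p = 0.045).

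The time after electroporation was compared as 24 h minus the earlier arrays (6 h and 8 h) with the kind of control as a second term. This contrast was not used to choose the genes, but it is not free of that choice. The 24 h array against no siRNA had the widest spread (SD 0.447), so genes chosen for a low mean can lie lowest there. All 4 genes were lower at 24 h in the mean, and 0 of 4 passed (limma), beside 0.118% of all rows called (8 of 6798, and 0 to 98 under other settings). At an unadjusted p under 0.05 there was 1 of 4, TARS1, beside 10.1% of all rows. TARS1 averaged -0.61 at 24 h and -0.15 early, a difference of -0.46 (SE 0.19, limma adjusted p = 0.393). GARS1 averaged -0.44 at 24 h and -0.15 early, a difference of -0.29 (SE 0.19, limma adjusted p = 0.687). For IARS1 the means were -0.58 at 24 h and -0.39 early, a difference of -0.19 (SE 0.19, limma adjusted p = 0.808). For EPRS1 they were -0.48 at 24 h and -0.31 early, a difference of -0.18 (SE 0.19, limma adjusted p = 0.826).

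The time differences within each kind of control stand on 1 array a side, and the contrast between the controls was not tested. Against control siRNA, 24 h minus 8 h was 0.027 for IARS1, -0.003 for EPRS1, -0.24 for TARS1 and -0.064 for GARS1. Against no siRNA, 24 h minus 6 h was -0.41 for IARS1, -0.35 for EPRS1, -0.68 for TARS1 and -0.52 for GARS1. By feature, 6 of 12 were lower at 24 h than at 8 h against control siRNA, as were 45.8% of all complete features. On the arrays against no siRNA all 12 were lower at 24 h than at 6 h, as were 54.0% of all. The 24 h array against no siRNA was the lowest of the 4 for 10 of the 12 features (33.9% of all complete features) and the 6 h array the highest for 10 of 12 (25.3% of all). The spread of that 24 h array was the widest of the 4, features of 1 gene are not independent, and the part of array spread in these counts was not tested. With the arrays centred and scaled to 1 spread the differences were -0.057 for IARS1, -0.065 for EPRS1, -0.34 for TARS1 and -0.20 for GARS1. MYC itself was -0.69 at 24 h and -1.10 early, a difference of 0.41 (SE 0.19, limma adjusted p = 0.467), the opposite sign to the 4 synthetase genes.

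In the wider family all 7 cytosolic synthetase genes had a negative time difference (median -0.29) and all 4 mitochondrial ones a positive one (median 0.24), while 49.9% of all rows were negative. Of these 7, 4 are the genes chosen on their ratios, which can lie lowest on the widely spread 24 h array against no siRNA. With the arrays centred and scaled LARS1 turned positive, and 6 of 7 were negative (median -0.20). Within the arrays against control siRNA 5 of the 7 were negative, with IARS1 and LARS1 positive, and within those against no siRNA all 7 were. Over the features with a value on all arrays, 6 of the 7 were negative against control siRNA, the exception being IARS1. These 6 include EPRS1 at -0.003 and LARS1 at -0.016. Against no siRNA AARS1 was at -0.019 and the mitochondrial HARS2 at 0.022. In limma 0 of these 11 passed, and 3 cytosolic genes and 1 mitochondrial gene had an unadjusted p under 0.05, as did 10.1% of all rows. WARS1 had the largest difference, with -0.74 at 24 h and 0.16 early (SE 0.18, limma adjusted p = 0.057). In the fit over complete features only, WARS1 passed (limma adjusted p = 0.034). It differed by -0.94 within the arrays against control siRNA and by -0.85 within those against no siRNA. YARS2 was at 0.33 at 24 h and -0.14 early (limma adjusted p = 0.36), with differences of 0.45 against control siRNA and 0.49 against no siRNA. The compartments were compared after these values were seen, and their difference was not tested.

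**Figure D5:**
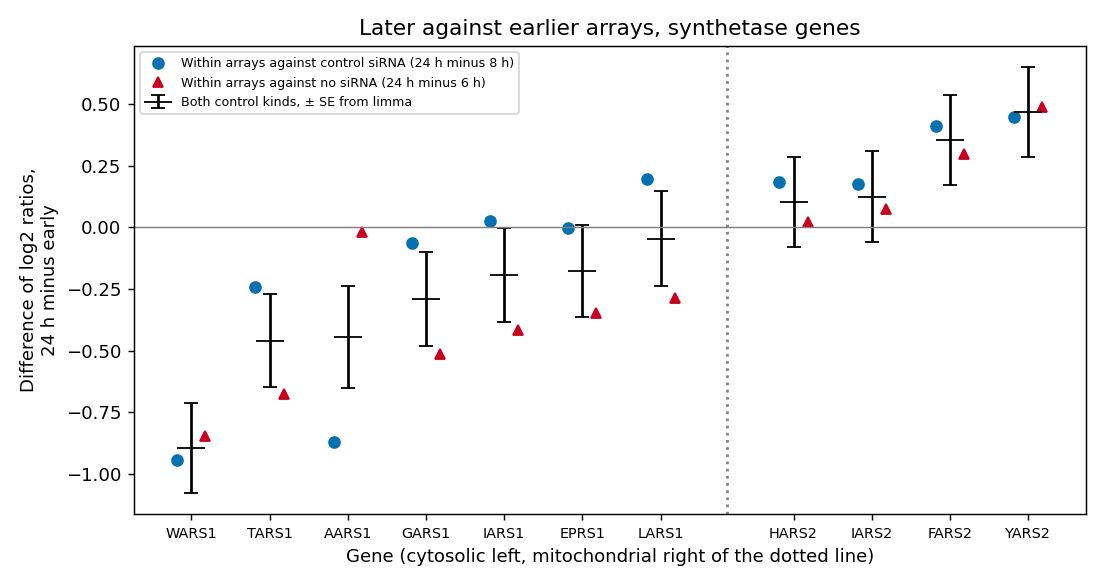
Difference of log2 ratios, 24 h minus early (y axis), for the measured synthetase genes (x axis), as the estimate over both kinds of control with its SE and as single differences within each kind. The estimates run from -0.89 (WARS1) to -0.046 (LARS1) for cytosolic genes (LARS1 is positive with the arrays centred and scaled, and its point against control siRNA sets 2 features at 24 h against 1 at 8 h) and from 0.10 (HARS2) to 0.47 (YARS2) for mitochondrial genes.

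The kind of control was compared as the arrays against control siRNA minus those against no siRNA, with time as the second term. That term joins 6 h (no siRNA) and 8 h (control siRNA) as early, so time was not held equal between the controls. The 4 genes did not pass (0 of 4 in limma, 0 at an unadjusted p under 0.05), beside 0.0883% of all rows called (6 of 6798, and 0 to 162 under other settings). IARS1 averaged -0.48 against control siRNA and -0.48 against no siRNA, a difference of 0.005 (SE 0.19). EPRS1 averaged -0.39 against control siRNA and -0.40 against no siRNA, a difference of 0.007 (SE 0.19). TARS1 was at -0.28 against control siRNA and -0.47 against no siRNA, a difference of 0.19 (SE 0.19), and GARS1 at -0.26 against control siRNA and -0.34 against no siRNA, a difference of 0.08 (SE 0.19). Limma's adjusted p lay between 0.85 and 0.996 for the 4 genes. Array identifiers fall into 2 ranges that go with the kind of control, so experiment and control cannot be told apart.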

How the data were processed

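The authors deposited 1 processed log2 ratio per feature and array, with log base, direction, background correction and normalization not given in the sources used here. Cy5 carried MYC siRNA RNA and Cy3 control RNA, per the labels. Scale and direction were taken from the values, the dyes and MYC. Symbols came from the platform annotation, updated by Entrez ID through RefSeq (GRCh38.p14, names and promoter windows; 10124 features matched). Of 15154 features, 10165 had 1 symbol, 4 several and 4985 none. Features of 1 symbol were averaged per array over those with a value there, so a gene can rest on different features on different arrays; this left 6798 rows complete on all arrays, 3954 of them named genes.

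The mean ratio was tested against 0, and time class and control kind as 2 terms of 1 model, with limma 3.58.1 in R 4.3.3 (lmFit, eBayes), adjusted by Benjamini-Hochberg over all rows at a threshold of 0.05. The time and control fit had 1 residual degree of freedom per row and 17.5 prior ones, so its errors rest mostly on the spread pooled over rows. The fit for MYC siRNA had 3 and 6.31. Nothing in the labels says that the arrays came from separate cultures, and p-values then measure only their spread, which may be technical. The number of arrays limits precision. The code was tested on simulated data. Figures and promoter search used Python 3.11.15.

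The members and gene lists were chosen with earlier results of these data known. Named were the 4 genes, MYC, every measured gene of the synthetase, multisynthetase and EPRS1 partner lists, and in other lists up to 4 genes past the test, or the 2 of largest size where 0 passed. Likeness took the 3 nearest genes per member. Alternatives were other summaries of features, centring, scaling, a robust prior, other terms, a filter on arrays and left-out arrays. Protein sequences were not used here.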

Additional observations from a re-analysis of the deposited data

Results flagged for a closer look

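AARS1 was flagged because 1 array stood far from the others: the 24 h control-siRNA array gave -0.68, apart from 0.05, 0.07 and 0.19, a gap of 0.848 of the whole range, above the critical value of Dixon's test. It rests on 1 feature, and chance flags about 1 in 20 such groups; 25 genes and 12 features were examined.

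For 5 genes, averaged over the features with a value on an array, the difference of 24 h minus early had opposite signs within the 2 kinds of control, with 1 array a side, so the contrast between the controls was not tested. IARS1 differed by 0.027 against control siRNA and by -0.41 against no siRNA. LARS1 differed by 0.19 against control siRNA and by -0.29 against no siRNA, but 1 of its 2 features had no value at 8 h, and the complete one differed by -0.016 and -0.15, the same sign. EEF1B2 was at 0.15 against control siRNA and -0.63 against no siRNA, and EIF2S1 at 0.20 against control siRNA and -0.14 against no siRNA. AIMP1 was at -0.093 against control siRNA and 0.17 against no siRNA, and over its 4 complete features at -0.004 and 0.14, so its first value comes from features missing on some arrays.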

How the results depend on the processing

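The means of IARS1, EPRS1, TARS1, GARS1 and the median of the cytosolic synthetases stayed below 0 under the 11 alternatives run for each. Several alternatives could not change a member's mean, such as the robust prior, the added terms and complete features. The members lay below 0 on every array, so leaving 1 out could not turn their sign. With an array left out, IARS1 ranged from -0.55 to -0.41, EPRS1 from -0.45 to -0.33, TARS1 from -0.46 to -0.23, GARS1 from -0.37 to -0.20 and the median from -0.44 to -0.20. Rows changed under MYC siRNA were 1073, and 1971 with single features, 1980 with time and control as terms and 0 to 441 with an array left out (441 without the 8 h array, 4 without the 24 h control-siRNA array, 0 without the 6 h array, 234 without the 24 h no-siRNA array), when 1796 to 2179 rows still had an unadjusted p under 0.05 in limma. Cytosolic synthetases called lower were 2, and 5 with time and control as terms (IARS1, EPRS1, TARS1, GARS1 and WARS1) and 0 to 1 with an array left out. MYC ranged from -1.08 to -0.77 with an array left out, and at -0.77, without the 6 h array, limma's adjusted p was 0.053. Rows changed with time were 8, and 74 with single features, 98 with feature medians, 26 with complete features, 61 with centred and 0 with scaled arrays, 5 with a robust prior and 0 with the term alone. For control kind they were 6, and 57, 162, 37, 87 and 0 in the same order, and 0 with the term alone; the causes were not tested. Member time differences kept their sign and did not pass under the tested alternatives; within control siRNA and within no siRNA they were 0.027 and -0.41 for IARS1, -0.24 and -0.68 for TARS1, and -0.064 and -0.52 for GARS1. Control differences turned sign for IARS1 (-0.027 centred, -0.13 scaled), EPRS1 (-0.025 and -0.11) and GARS1 (-0.046 scaled), and did not pass under the tested alternatives. Within 24 h and within early arrays they were 0.23 and -0.22 for IARS1, 0.40 and -0.029 for TARS1, and 0.30 and -0.15 for GARS1. Members have no single value with each feature as a row, so the report gives each feature. No paired analysis was possible because replicate numbers follow accession order only; the fit with control kind as a term sets 24 h against early within each control. Scanner intensities were not used here, so signal over background is unknown.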
